A study of Mus musculus with 8 samples.

Results

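The 8 sarcomeric myosin heavy chain genes Myh1, Myh2, Myh3, Myh4, Myh6, Myh7, Myh7b and Myh8 were examined in RNA-seq counts from mouse soleus, a calf muscle used in standing. They were chosen by symbol from the 22880 genes listed for every mouse, and all 8 were found and passed the filter on low counts that left 14001 genes for testing. Soleus was taken from 4 control mice (Dnm2 +/+) and 4 Dnm2 +/K562E mice, all on the C57BL/6 strain background (the J substrain in the study's methods) and 2 months old. All were male by the study's methods, and the labels do not give the sex. Dnm2 encodes dynamin 2, a GTPase that cuts membrane buds free during endocytosis, and the K562E allele is present in every cell of the heterozygous mice rather than in muscle alone. The controls were described in the study's methods as age-matched or littermate animals, which carry no altered allele. The labels did not name the family or litter of any mouse.

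Myosin heavy chains are the motor proteins of the thick filament, and each muscle fibre is classed by the chain it contains. Myh7 encodes the slow type I chain, and Myh2, Myh1 and Myh4 encode the fast chains of type IIA, IIX and IIB fibres, in increasing order of shortening speed. Myh3 and Myh8 encode the embryonic and neonatal chains, which are replaced as muscle matures and return in newly formed fibres. Myh6 and Myh7b encode the alpha cardiac chain and an ancient slow-type chain, both of which are known from muscle spindles, the stretch sensors of muscle, and from specialised muscles. Mouse soleus is known as a mixture of type I and type IIA fibres with fewer type IIX and hardly any type IIB fibres.

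The genes lie in 3 places of the genome (GRCm38, GENCODE M21). A cluster on the plus strand of chromosome 11 holds, in this order, Myh3 (67078300 to 67102291), Myh2 (67171027 to 67197517), Myh1 (67200052 to 67224575), Myh4 (67238029 to 67260446) and Myh8 (67277124 to 67308634). Myh6 (54941921 to 54966927) and Myh7 (54970684 to 54994626) are neighbours on the minus strand of chromosome 14. Myh7b (155611212 to 155634307) stands alone on the plus strand of chromosome 2.

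Promoter sequence is shown because the 5 clustered genes are close in sequence and differed from each other in their counts. The lines give 80 bases each of RefSeq sequence (GRCm38.p6, plus strand, 5′ to 3′), all before the RefSeq start of the gene and outside every GENCODE exon. Capitals mark, in Myh2, Myh1, Myh4 and Myh8, the longest run of bases that these genes share in the 250 bases before their starts and, in Myh3, a TATAAA motif.
Myh3: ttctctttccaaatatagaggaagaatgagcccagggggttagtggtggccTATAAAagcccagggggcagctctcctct
Myh2: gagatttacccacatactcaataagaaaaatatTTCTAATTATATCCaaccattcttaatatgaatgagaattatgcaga
Myh1: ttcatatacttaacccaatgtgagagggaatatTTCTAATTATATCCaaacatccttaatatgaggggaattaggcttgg
Myh4: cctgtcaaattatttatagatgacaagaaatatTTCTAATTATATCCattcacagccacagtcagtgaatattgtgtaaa
Myh8: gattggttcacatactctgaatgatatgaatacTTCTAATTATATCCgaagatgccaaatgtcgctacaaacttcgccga

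These windows are, in the order of the lines, chr11:67078220-67078299, chr11:67170869-67170948, chr11:67199909-67199988, chr11:67237621-67237700 and chr11:67277037-67277116. The shared run of 14 bases, TTCTAATTATATCC, began 125, 160, 158 and 54 bases before the start of Myh2, Myh1, Myh4 and Myh8. Searched on both strands, it was present in the 250 bases before the start in 4 of 32851 RefSeq promoters (0.0122%), which were those of these genes. The run was picked from these promoters, so its presence in them was fixed in advance. In Myh1, Myh2 and Myh4 the identical run extended to 20 bases, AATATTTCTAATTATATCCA. The 250 bases before the starts of Myh3, Myh6, Myh7 and Myh7b did not hold the 14 letters. TATAAA was found on either strand in 12.4% of these promoters, but with 6 bases it is shorter, so the shares of the motifs are not comparable. On the plus strand its nearest match began 29, 32 and 31 bases before the start of Myh3, Myh1 and Myh4, and Myh8 held it on the minus strand only, 96 bases before the start. Of the genes with the run, Myh4 and Myh2 were lower in Dnm2 +/K562E soleus, and no difference was called for Myh1 or Myh8.

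Each library held between 33407430 and 48832814 reads counted on genes. The level of a gene is its normalized CPM, the reads of that gene relative to the library total times the TMM factor of edgeR, and SD is over the 4 mice of a genotype. Differences are log2 values of Dnm2 +/K562E minus control, with their standard error (SE), from edgeR's quasi-likelihood test. All p-values were adjusted over the 14001 genes by the Benjamini-Hochberg method. Called genes had an adjusted p below 0.05 together with a log2 difference of 0.58 or more, upward or downward. The TMM factors were 0.9145 to 0.9594 in controls and 1.037 to 1.103 in Dnm2 +/K562E mice. Without them, at library size alone, the median over all genes of the log2 difference moved from 0.0074 to 0.219 and the share of calls that were higher from 62.2% to 83.6%. Dnm2 itself, which the allele alters in sequence and not in copy number, differed by 0.15 (adjusted p = 0.0909), and its counts do not check the genotype labels.

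In Dnm2 +/K562E soleus the embryonic Myh3 rose 14.3-fold, the fast IIB gene Myh4 fell in every mouse below the lowest control, and the IIA gene Myh2 fell 1.54-fold. The slow gene Myh7 and the low-level genes Myh6 and Myh7b passed the adjusted p in the lower direction with log2 fold changes short of 0.58. For Myh1 and the neonatal Myh8 no difference passed the test. Of the 8 genes, 1 was called higher and 2 were called lower, against 12.9% of all tested genes called higher and 7.85% called lower. By the adjusted p alone, 1 gene was higher and 5 were lower, against 22.2% and 21.7% of all tested genes. The mice of the genotypes did not overlap in normalized CPM for 6 of the 8 genes, against 41.2% of all tested genes, so non-overlap was common throughout this comparison. The median log2 fold change of the 8 genes was -0.40, against 0.0074 over all tested genes.

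**Figure D1:**
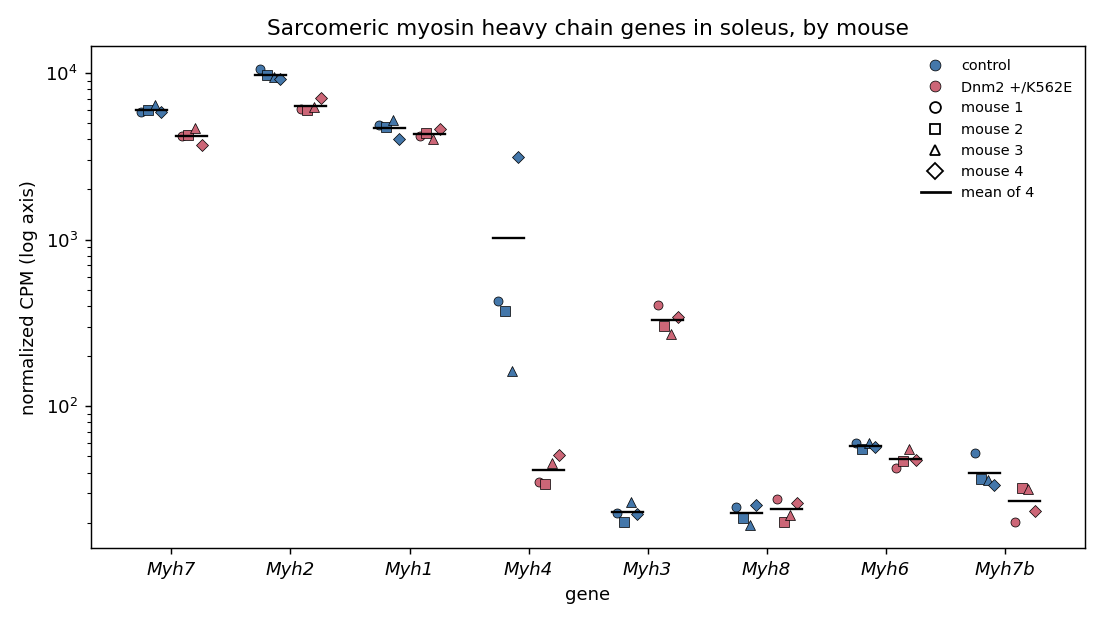
Normalized CPM (log axis) of the 8 sarcomeric myosin heavy chain genes in each of the 4 control and 4 Dnm2 +/K562E mice, with a bar at the mean of 4. Myh3 is higher and Myh4 lower in every Dnm2 +/K562E mouse, and control mouse 4 stands far above the other controls for Myh4.

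Among the adult genes, slow Myh7 had normalized CPM of 5808, 6013, 6384 and 5849 in controls 1 to 4 and of 4167, 4270, 4643 and 3694 in Dnm2 +/K562E mice 1 to 4. The highest Dnm2 +/K562E mouse lay below the lowest control. The means were 6014 ± 263 and 4193 ± 391 (SD, n = 4 each), a log2 difference of -0.52 with an SE of 0.08 (adjusted p = 0.000422, edgeR). Because the size of this difference was under 0.58, Myh7 was not among the called genes.

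Myh2, the IIA gene and the most abundant of the family in every mouse, had normalized CPM of 10596, 9767, 9471 and 9179 in controls 1 to 4. In Dnm2 +/K562E mice 1 to 4 it had 6064, 5966, 6280 and 7061, all below the controls. This gave a log2 difference of -0.62 with an SE of 0.08 (adjusted p = 0.000136, edgeR). At library size alone it was -0.41 with an adjusted p of 0.000396, which passed the test but not the fold threshold. Myh2 ranked as gene 9 or 10 of all genes by counts in each library.

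Myh1, the IIX gene, had normalized CPM of 4846, 4728, 5212 and 4027 in controls and of 4186, 4381, 4003 and 4623 in Dnm2 +/K562E mice. The genotypes overlapped, and control mouse 4 was the lowest control. Their log2 difference was -0.13 (95% interval -0.32 to 0.06, adjusted p = 0.257, edgeR), and its sign turned to 0.08 at library size alone. Without control mouse 4 it was -0.21 with an adjusted p of 0.0536.

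Myh4, the IIB gene, was the most variable of the 8. Its normalized CPM was 426, 372, 163 and 3134 in controls 1 to 4, so control mouse 4 alone held most of the control sum. Dnm2 +/K562E mice had 34.9, 34.0, 45.9 and 50.9, each lower than every control. In raw reads the controls had 14313, 12511, 7269 and 106446 and the Dnm2 +/K562E mice 1286, 1463, 1923 and 1882, so depth was not limiting. Over all 8 mice the log2 difference was -4.63 with an SE of 0.84 (adjusted p = 0.00119, edgeR), and 1 other tested gene had a lower one. Without control mouse 4 it was -2.96 (adjusted p = 2.64e-05), so the direction was kept and the size rested on that mouse.

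**Figure D2:**
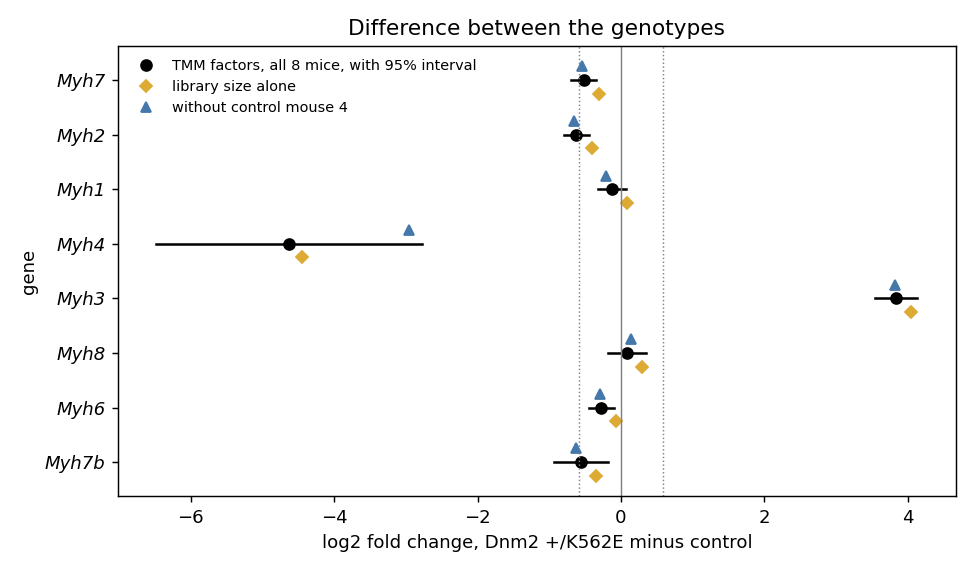
Log2 fold change (Dnm2 +/K562E minus control) of each gene with its 95% interval (black), at library size alone (yellow) and without control mouse 4 (blue), with dotted lines at 0.58 in each direction. Myh4 moves from -4.63 to -2.96 without control mouse 4, and the other genes keep close to their values apart from the common shift at library size alone, which turns the sign of Myh1.

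Of the 10 partner genes of fast fibres described next, control mouse 4 was the highest control for 6 and the lowest for 2. Parvalbumin (Pvalb), a calcium buffer of the fastest fibres, had normalized CPM of 342, 407, 469 and 946 in controls 1 to 4 and of 23.5 to 76.9 in Dnm2 +/K562E mice. The fast alpha-actinin Actn3 had 236, 294, 389 and 758 in controls and 144 to 173 in Dnm2 +/K562E mice. Fast myosin-binding protein C, Mybpc2, had 132, 200, 222 and 445 in controls and 21.6 to 27.3 in Dnm2 +/K562E mice. In each of these genes control mouse 4 was the highest, as it was for Myh4, and it was also the highest control for Atp2a1, Casq1 and Myl1. The troponin genes differed, since control mouse 4 was the lowest control for Tnni2 (4692 against 4739 to 5010) and Tnnc2 (3887 against 3988 to 4132). Of 10 slow fibre genes it was the lowest control for 8 and the highest for none. The adipocyte genes Adipoq, Plin1 and Cfd were also highest in control mouse 4 (summed level up to 411.5 in controls and 128 to 225 in Dnm2 +/K562E mice), as were the 7 macrophage genes among the controls. The part of dissection or of other tissue in the Myh4 value of this mouse was not tested.

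Of the 10 partner genes of fast fibres, 7 were called lower and none higher, against 7.85% and 12.9% of all tested genes. The median log2 fold change of the 10 was -0.69, against 0.0074 over all tested genes. Without control mouse 4, 7 were also called lower. The 2 with the smallest p-values were the calcium pump Atp2a1, with a log2 difference of -1.19 (SE 0.07, adjusted p = 1.05e-06, edgeR), and Mybpc2, with -3.36 (SE 0.32, adjusted p = 1.499e-05). Pvalb fell by 3.34 on the log2 scale. The light chains Myl1 and Mylpf, which bind the fast heavy chains, differed by -0.20 and -0.07 (adjusted p = 0.0823 and 0.572, edgeR) with overlapping genotypes. At library size alone, 4 of the 10 genes were called lower.

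**Figure D3:**
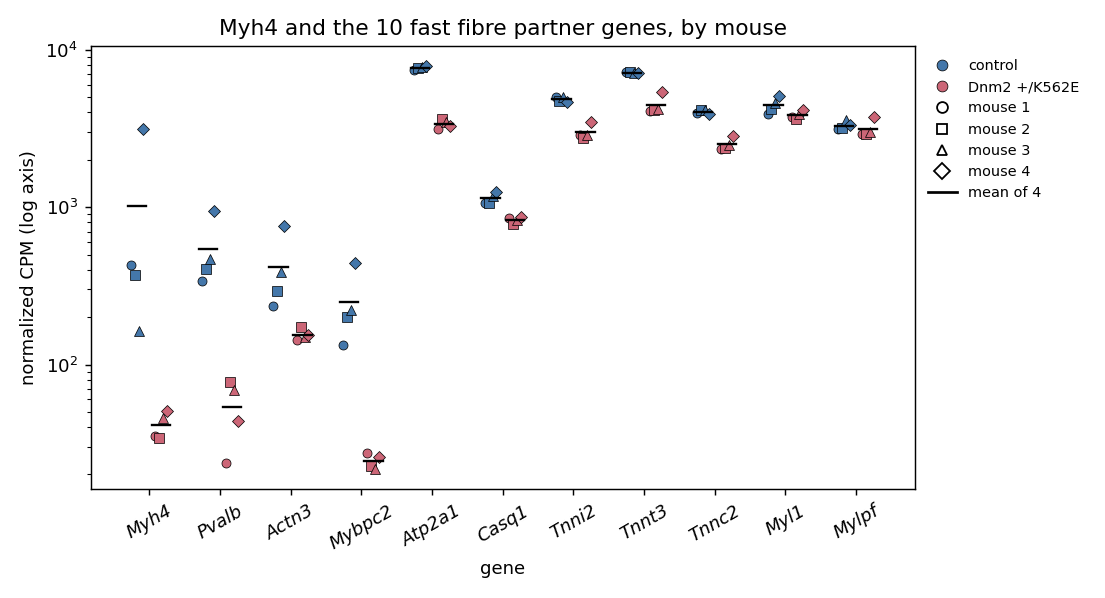
Normalized CPM (log axis) of Myh4 and the 10 fast fibre partner genes in each mouse, with a bar at the mean of 4. Control mouse 4 is the highest control for Myh4, Pvalb, Actn3 and Mybpc2, and the Dnm2 +/K562E mice lie below the controls for 8 of the 10 partners.

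Of 10 slow fibre genes, the partners of Myh7, 4 were called lower and none higher, against 7.85% and 12.9% of all tested genes. The median log2 fold change of the 10 was -0.51. The essential light chain Myl3, which is shared by slow fibres and heart ventricle, changed most. It had normalized CPM of 3149, 3429, 3722 and 3125 in controls and of 554 to 993 in Dnm2 +/K562E mice, which is a log2 difference of -2.12 (SE 0.18, adjusted p = 7.36e-06, edgeR). The slow regulatory light chain Myl2 fell by 0.64 on the log2 scale (adjusted p = 0.0013, edgeR). The calsarcin gene Myoz2 fell by 0.68 (adjusted p = 4.27e-05), whereas slow troponin I, Tnni1, had -0.15 (adjusted p = 0.287) and overlapping genotypes. At the other end, Casq2, the slow and cardiac calsequestrin, had 0.32 (adjusted p = 0.0513). At library size alone 1 of the 10 was called lower.

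Myh3, the embryonic gene, had normalized CPM of 22.9, 20.1, 26.6 and 22.7 in controls 1 to 4. In Dnm2 +/K562E mice 1 to 4 it had 403, 302, 271 and 344. Every Dnm2 +/K562E mouse was thus far above every control, and the spread within each genotype was small beside this gap. On the log2 scale the difference was 3.84 (95% interval 3.54 to 4.13, SE 0.13, adjusted p = 9.34e-08, edgeR), and 23 of all tested genes had a higher one. In reads the gene rose from 678 to 1188 per control library to 11382 to 14855 per Dnm2 +/K562E library.

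Myh8, the neonatal gene that lies at the far end of the same cluster, did not follow Myh3. Its normalized CPM was 24.7, 21.4, 19.3 and 25.6 in controls and 27.9, 20.3, 22.1 and 26.1 in Dnm2 +/K562E mice, with overlapping genotypes. Its log2 difference was 0.09 (95% interval -0.18 to 0.35, adjusted p = 0.594, edgeR). In raw reads the genotypes lay side by side without overlap, at 719 to 868 in controls and 874 to 1028 in Dnm2 +/K562E mice, and at library size alone the difference was 0.29 (adjusted p = 0.0741). The ratio of Myh3 to Myh8 counts was 0.927, 0.943, 1.38 and 0.888 in controls and 14.5, 14.9, 12.3 and 13.2 in Dnm2 +/K562E mice. The genotypes did not overlap in this ratio of reads, which is not adjusted for the length of the genes.

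Of 10 genes of developing and regenerating fibres, 5 were called higher and 1 lower, against 12.9% and 7.85% of all tested genes. The median log2 fold change of the 10 was 1.80. The embryonic light chain Myl4 had normalized CPM of 7.89 to 10.5 in controls and 194 to 301 in Dnm2 +/K562E mice. Cardiac-type troponin T, Tnnt2, an isoform of embryonic skeletal muscle, rose by 2.44 on the log2 scale (adjusted p = 8.21e-07, edgeR). Myog, a transcription factor of differentiating myoblasts, rose by 3.10 (adjusted p = 7.90e-07), and the fetal acetylcholine receptor subunit Chrng by 2.64 (adjusted p = 3.65e-05). Ncam1, an adhesion molecule of immature and denervated fibres, rose by 1.74 (adjusted p = 5.41e-07). The called gene in the other direction was Myf5, a factor of satellite cells and early myoblasts (-1.85, adjusted p = 3.25e-05). The fusion genes Mymk and Mymx had 1.00 and 1.85 (adjusted p = 0.0539 and 0.0674) with few reads and overlapping genotypes, and Actc1 and Myod1 had 0.35 and -0.35 (adjusted p = 0.0902 and 0.116). The 3 satellite cell markers Pax7, Myf5 and Calcr, of which Myf5 is also counted above, were all called lower. Their summed normalized CPM was 10.7 to 15.1 in controls and 1.78 to 3.65 in Dnm2 +/K562E mice. Calcr had 0.0697 to 0.353 in Dnm2 +/K562E mice, so its difference rests on few reads there.

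**Figure D4:**
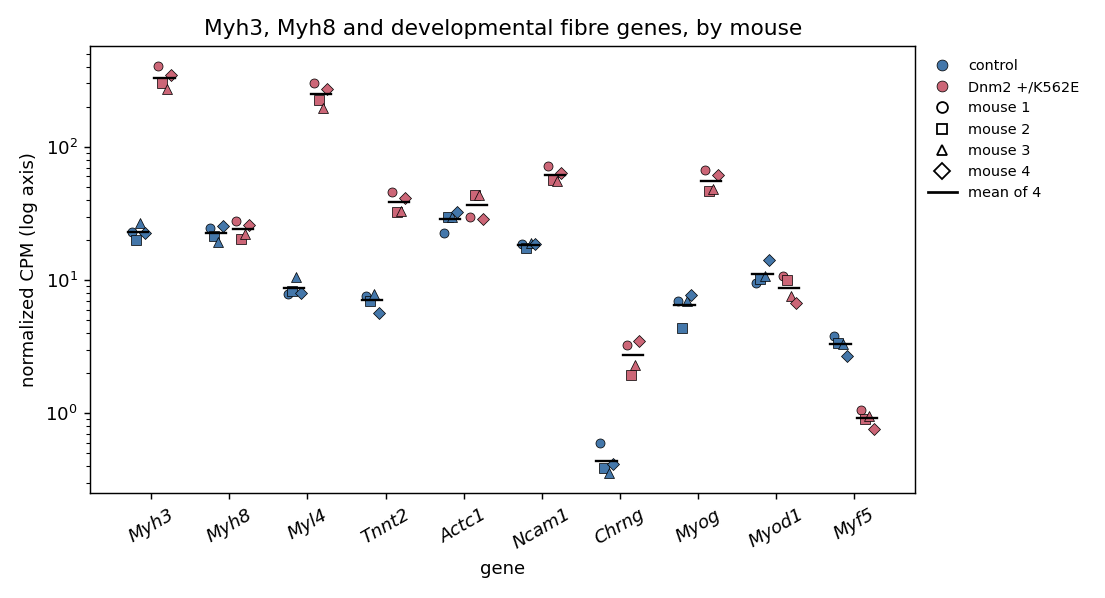
Normalized CPM (log axis) of Myh3, Myh8 and 8 of the 10 developmental fibre genes in each mouse, with a bar at the mean of 4 (Mymk and Mymx, near 1, are left out). Myh3 rises together with Myl4, Tnnt2, Ncam1, Chrng and Myog, while Myh8 overlaps between the genotypes.

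Myh6, the alpha cardiac gene, had normalized CPM of 59.9, 55.7, 59.8 and 56.7 in controls and of 42.6, 46.6, 55.4 and 47.6 in Dnm2 +/K562E mice. The genotypes did not overlap, though Dnm2 +/K562E mouse 3 came close to the lowest control. The genotypes differed by -0.27 on the log2 scale with an SE of 0.08 (adjusted p = 0.0176, edgeR), but by -0.06 with an adjusted p of 0.51 at library size alone. Of the other markers of heart muscle, the light chain Myl7 was at 0 in 7 of the 8 mice, and the atrial peptide gene Nppa was at 0 in every control and at most 0.162 CPM in Dnm2 +/K562E mice. Nppb was at 0 in every control and at 0.334 to 0.568 CPM in Dnm2 +/K562E mice. It was called higher (adjusted p = 0.000329, edgeR), though on few reads and with none in the controls. Cardiac troponin I, Tnni3, was at 0.327 to 0.834 CPM over all mice.

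Myh7b had normalized CPM of 52.2, 36.6, 36.3 and 33.9 in controls and of 20.3, 32.2, 32.1 and 23.4 in Dnm2 +/K562E mice. The genotypes came close without overlap, and control mouse 1 was well above the other controls. The log2 difference of -0.56 had an SE of 0.17 (adjusted p = 0.0227, edgeR). The adjusted p rose to 0.061 without Dnm2 +/K562E mouse 1, to 0.0644 without Dnm2 +/K562E mouse 4 and to 0.122 at library size alone, past the threshold in each case. A list of 6 muscle spindle genes was mixed beside Myh6 and Myh7b. Of these, Etv1, Etv4 and Gdnf were called higher (log2 fold changes 0.78, 0.65 and 2.34) and Ntf3 lower (-0.92, adjusted p = 0.0028, edgeR). Of all tested genes, 12.9% were called higher and 7.85% lower.

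The shares of the 8 genes in their summed counts were taken for each mouse. Myh7 held 26.6%, 28.6%, 29.9% and 26.2% in controls 1 to 4 and 27.9%, 28.4%, 30.2% and 23.3% in Dnm2 +/K562E mice 1 to 4. The mean share was 27.8% ± 1.73 in controls and 27.4% ± 2.96 in Dnm2 +/K562E mice (SD, n = 4 each), a difference of -0.38 percentage points (exact two-sided permutation test, p = 0.857, where 4 against 4 mice allow a smallest p of 0.0286). Thus a difference in the slow share was not detected, although the counts of Myh7 themselves were lower. The sign of this small difference depended on the mice and the denominator.

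The remaining shares were described without a test, because shares of 1 sum move together. Myh2 held 48.5%, 46.5%, 44.3% and 41.1% in controls and 40.6%, 39.6%, 40.9% and 44.5% in Dnm2 +/K562E mice, with overlap. Myh1 held 22.2%, 22.5%, 24.4% and 18.0% in controls and 28.0%, 29.1%, 26.1% and 29.1% in Dnm2 +/K562E mice, all above the controls. The Myh1 share was thus higher although no difference was called in its level, and the sum itself was lower. Myh4 held 1.95%, 1.77%, 0.762% and 14.0% in controls and between 0.226% and 0.320% in Dnm2 +/K562E mice. Myh3 went from at most 0.124% in controls to at least 1.77% in Dnm2 +/K562E mice. Myh8 held 0.0901% to 0.114% and 0.135% to 0.187%, Myh6 0.254% to 0.280% and 0.285% to 0.361%, and Myh7b 0.152% to 0.239% and 0.136% to 0.214%. The shares of Myh8 and Myh6 did not overlap and were higher in Dnm2 +/K562E mice, while the normalized CPM of Myh6 was lower. Without Myh4 in the sum, the shares of Myh6 overlapped (0.270% to 0.295% in controls and 0.285% to 0.362% in Dnm2 +/K562E mice).

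**Figure D5:**
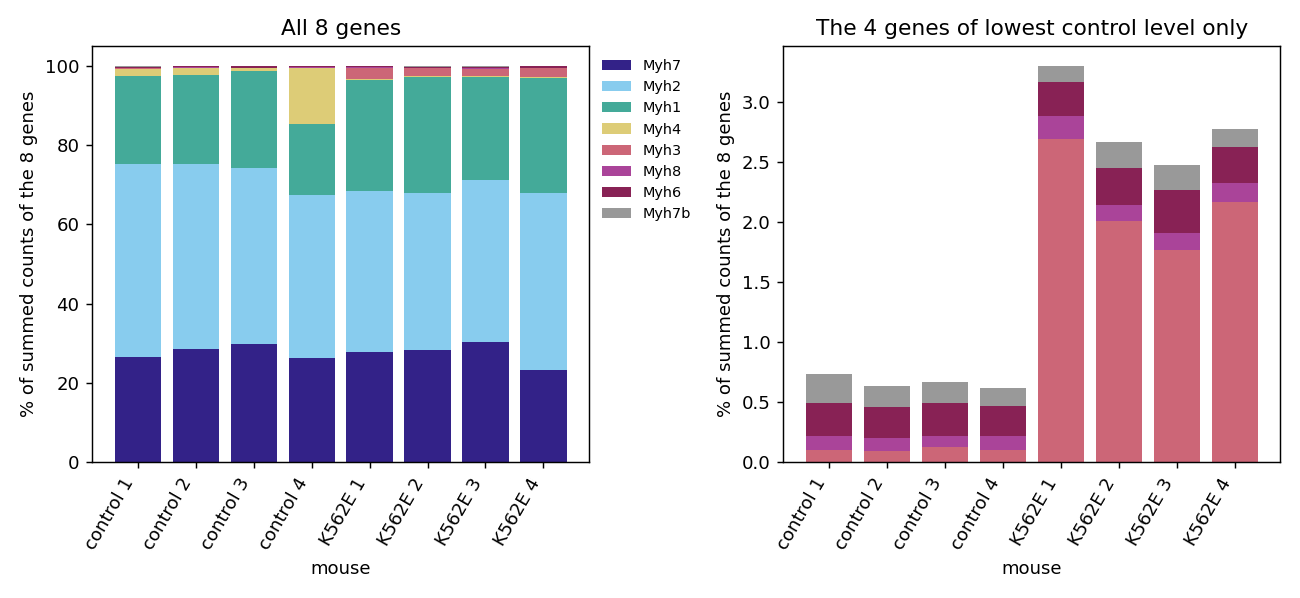
Share (%) of each gene in the summed counts of the 8 genes, by mouse, for all 8 genes (left) and for the 4 least abundant genes of the controls on a wider scale (right). The Myh7 bars are alike in both genotypes (27.8% and 27.4%), Myh4 takes 14.0% in control mouse 4, and Myh3 reaches 1.77% to 2.70% in Dnm2 +/K562E mice.

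When Myh4 was left out of the sum, control mouse 4 held 30.5% Myh7, 47.8% Myh2 and 21.0% Myh1. Myh2 then held 44.7% to 49.5% in controls and 39.7% to 44.6% in Dnm2 +/K562E mice, with next to no gap between them. Myh1 then held 21.0% to 24.6% in controls and 26.2% to 29.2% in Dnm2 +/K562E mice. The Myh7 share without Myh4 was 29.2% ± 1.5 and 27.5% ± 2.96 (SD, n = 4 each; exact two-sided permutation test, p = 0.4). The 3 fast adult genes together held 69.5% to 73.2% of the sum in controls and 67.3% to 73.9% in Dnm2 +/K562E mice, with overlap.

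Within the fast genes, the ratio of Myh1 to Myh2 counts, chosen after its values were seen, was 0.457, 0.484, 0.550 and 0.439 in controls and 0.690, 0.734, 0.637 and 0.655 in Dnm2 +/K562E mice. The genotypes did not overlap, and the ratio does not depend on library scaling. The ratio of Myh2 to Myh7 was 1.48 to 1.82 in controls and 1.35 to 1.91 in Dnm2 +/K562E mice, with overlap. The ratio of Myh1 to Myh7 was 0.688 to 0.834 in controls and 0.862 to 1.25 in Dnm2 +/K562E mice, without overlap.

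The 8 genes together took 2.01%, 1.94%, 1.95% and 2.14% of all counts in controls and 1.65%, 1.66%, 1.63% and 1.64% in Dnm2 +/K562E mice. In normalized CPM the sum was 21637 ± 570 and 15305 ± 414 (SD, n = 4 each). Other fibre genes were also lower, as actin (Acta1) differed by -0.52 and creatine kinase (Ckm) by -1.02 on the log2 scale, while desmin (Des) rose by 0.72. All 7 macrophage, 4 fibroblast and 5 tendon markers were called higher, with summed normalized CPM of 72.8 to 135, 1295 to 1943 and 293 to 630 in controls and 179 to 296, 3264 to 4225 and 884 to 1209 in Dnm2 +/K562E mice. All 4 smooth muscle markers were called lower, with sums of 383 to 522 and 262 to 298. At library size alone 1 of these 4 was called lower. Of all tested genes, 12.9% were called higher and 7.85% lower. None of 4 Schwann cell and 3 tested adipocyte markers was called, with sums of 154 to 174 and 129 to 160 for Schwann cells and 77.5 to 411.5 and 128 to 225 for adipocytes. In bulk RNA of this kind, fewer fibres of a type and less RNA per fibre cannot be told apart, and the part of the other cell types in the lower summed level was not tested.

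To compare levels between genes, normalized CPM was divided by length. Per kilobase of exon, the means in controls were 1367 ± 86 normalized CPM for Myh2, 740 ± 78 for Myh1, 698 ± 30 for Myh7, 8.63 ± 0.32 for Myh6, 5.99 ± 1.27 for Myh7b, 3.81 ± 0.44 for Myh3 and 1.93 ± 0.25 for Myh8 (SD, n = 4). Myh4 followed Myh7 with 70.9, 61.8, 27.1 and 521 per kilobase. On this length Myh1 and Myh7 did not differ beyond their spread. With the length of the main coding transcript in place of all exons, Myh7 lay above Myh1 in every control, without overlap (965 ± 42 and 773 ± 82). Myh3 and Myh8 were likewise close in controls on the transcript length, at 3.85 ± 0.44 and 3.70 ± 0.48. In Dnm2 +/K562E mice Myh3 took the fourth place of the order in every mouse, at 44.8 to 66.6 per kilobase of exon, ahead of Myh6 (6.33 to 8.23) and Myh4 (5.65 to 8.45).

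Because these genes resemble each other, some of their reads may fit several members. Reads mapped with low quality were dropped, so such reads may be missing from the counts as well as assigned to the wrong member. How many were lost or misassigned was not tested. By the study's methods each end was read over more than 100 bases before trimming. Over the coding sequence, Myh7 and Myh6 were identical at 91.8% of aligned bases, Myh2 and Myh1 at 91.1% and Myh1 and Myh4 at 90.3%, while Myh7b reached 69.8% to 73.1% with the other members. Of the 31-base stretches in its transcripts, Myh1 shared 42.9% with other genes, Myh2 34.5%, Myh4 30.4%, Myh6 29.2%, Myh7 27.9%, Myh8 18.6%, Myh3 11.1% and Myh7b 0.273%. At 100 bases these values were 14.0% for Myh1, 9.49% for Myh2, 3.85% for Myh4, 10.04% for Myh6, 9.54% for Myh7 and 1.13% for Myh3. Myh6 had 0.93% to 1.03% as many counts as Myh7 in controls and 1.02% to 1.29% in Dnm2 +/K562E mice, and how many of its reads came from Myh7 was not tested. In control mouse 4, Myh4 was the highest and Myh1 the lowest of the controls. This mouse was also the lowest control for Myh2 and Myh7b, but not for Myh7, Myh6, Myh3 or Myh8. The part of shared reads in these values was not tested.

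The antisense genes Mhrt, Gm29015 and Gm31251 lie on exons of Myh7, 9430073C21Rik on Myh2, Myhas on Myh1 and Gm49130 on Myh6. The microRNA genes Mir208a, Mir208b and Mir499 lie within introns of Myh6, Myh7 and Myh7b. None of these antisense and microRNA genes was among the genes counted. The antisense genes cover up to 8.11% of the exon bases of a member, in the case of Myhas on Myh1. Whether their reads were counted on the members was not tested. Trpc4ap, on the opposite strand, covers 0.558% of the exon bases of Myh7b.

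Of the sarcomeric heavy chains outside the 8, Myh15 had normalized CPM of 0.356 to 0.536 in controls and 2.23 to 4.11 in Dnm2 +/K562E mice (log2 difference 2.95, SE 0.27, adjusted p = 1.27e-05, edgeR). Myh13, the extraocular gene next to Myh8, was at 16.8 to 21.8 and 15.7 to 19.2 (log2 fold change -0.17, adjusted p = 0.183). Of the 4 non-sarcomeric heavy chains, the smooth muscle gene Myh11 fell by 0.63 on the log2 scale (adjusted p = 0.000224, edgeR) and Myh14 rose by 0.97 (adjusted p = 6.69e-05). At library size alone Myh11 had -0.42, short of the fold threshold, and Myh14 had 1.18. Myh9 and Myh10 had 0.12 and 0.03 (adjusted p = 0.328 and 0.904).

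The 13 regulators of myosin heavy chain choice had a median log2 fold change of -0.42. Of all tested genes 7.85% were called lower and 12.9% higher, and of these regulators 3 were called lower and none higher. These were Ppargc1a, a coactivator of the slow oxidative programme, Vgll2, a cofactor of TEAD factors, and Eya1, a transcriptional cofactor of the fast fibre programme. Ppargc1a had normalized CPM of 53.2, 117, 102 and 86.0 in controls and of 32.8, 25.2, 24.5 and 33.4 in Dnm2 +/K562E mice (log2 difference -1.63, SE 0.21, adjusted p = 0.000129, edgeR). Vgll2 had -1.27 (adjusted p = 0.00125) and Eya1 -1.08 (adjusted p = 0.00113). Six4, Sox6, Prox1, Tead1 and Mef2d were among those that passed the adjusted p in the lower direction with log2 fold changes between -0.29 and -0.55. Tbx15 and Mef2c had 0.25 and 0.33 (adjusted p = 0.0107 and 0.0174), and Nfix had -0.01 (adjusted p = 0.915).

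Of 11 listed genes for myosin folding and the thick filament, 2 were called higher and 2 lower. The same calls were made for 12.9% and 7.85% of all tested genes. Mybph, a myosin-binding protein, went from 1.10 to 3.21 normalized CPM in controls to 23.7 to 74.9 in Dnm2 +/K562E mice (log2 difference 4.27, SE 0.43, adjusted p = 2.27e-05, edgeR), and the M-band gene Myom2 rose by 1.20 (adjusted p = 2.84e-06). Among those called lower, the ubiquitin ligase gene Trim63 fell by 0.86 (adjusted p = 0.00873), with overlapping genotypes. Unc45b, the myosin chaperone, had -0.36 (adjusted p = 0.00175), and titin (Ttn) had -0.42 (adjusted p = 0.00254).

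For 6 of the genes, the genes whose log2 CPM deviated most alike within the genotypes over the 8 mice were listed as a description. These had a Pearson coefficient of 0.951 to 0.986 and were the highest among all other tested genes. Which coefficient chance would give for the highest of so many genes over 8 mice was not tested. They were Fhl1, Slc6a15 and Rnf25 for Myh7, mt-Cytb, Mrpl15 and Fgfr1op2 for Myh2, and Crb3, Cldn9 and Scamp1 for Myh1. For Myh4, where control mouse 4 deviated most, they included Wrb and Ints9. They were Ninj1, Qsox2 and Cbr1 for Myh3, and Tox4, Selp and Katnbl1 for Myh8. No gene stood in more than 1 of these lists.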

How the data were processed

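Soleus RNA of 4 control and 4 Dnm2 +/K562E mice was sequenced on an Illumina instrument with paired ends. The authors trimmed reads with Trimmomatic 0.33, aligned them to GRCm38.p5 with STAR 2.5.1b and deposited raw counts per Ensembl gene from featureCounts. By the study's methods, featureCounts was set to count multi-mapping reads at their primary alignment and to drop reads below a minimum mapping quality. A read on several genes counted for each. Whether any multi-mapping read passed the quality limit was not tested. The strand setting is not given in the sources used here. The study's methods name poly A enrichment and the labels a total RNA kit.

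Counts were filtered with filterByExpr (minimum count 10, minimum total 15), scaled by TMM and fitted with the quasi-likelihood test of edgeR 4.0.16 in R 4.3.3, by genotype alone and with all 8 mice. Standard errors and 95% intervals follow from the F statistic. All p-values were adjusted over the tested genes. The Myh7 share was tested with scipy 1.17.1. Alternatives included DESeq2 1.42.0. The fit was also run on simulated counts, with as many genes raised as lowered and the same spread for all genes. That run did not test the scaling between the genotypes. Replicates of a genotype differed by more than sampling noise (chi-square per degree of freedom 12.6 or more), and separate animals are named by the labels.

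Symbols, exons and transcripts were taken from GENCODE M21 (22570 of 22880 identifiers with a symbol), and promoters from RefSeq. The members and lists were chosen with earlier results of these data known. Named were the 8 genes, their listed relatives and overlapping genes, and from each list the ends of its range or the smallest p-values. The other genes named from the lists, and the count ratios, were chosen after their values were seen. A few genes of the lists are counted in them but not reported here by name.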

Additional observations from a re-analysis of the deposited data

Results flagged for a closer look

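In a search of 38 groups of 4 mice (each gene, the sum and joined shares, in normalized CPM and as shares), 4 held a mouse outside Dixon's 95% limit, where chance flags about 1 in 20 groups. Control mouse 4 stood above the other controls for Myh4, at 3134 normalized CPM and 14.0% of the summed counts of the 8 genes. Control mouse 1 stood above the other controls for Myh7b, at 52.2 normalized CPM. Control mouse 2 stood below the other controls for the joined share of Myh3 and Myh8, at 0.197%. Of the 10 fast fibre partner genes, control mouse 4 was the highest control for 6, Pvalb, Actn3 and Mybpc2 among them, and the lowest for Tnni2 and Tnnc2. The cause was not tested.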

How the results depend on the processing

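The calls of Myh3 and Myh4 were kept under every alternative run, and Myh2 lost its call at library size alone (log2 fold change -0.41). Without a fold threshold, 6 of the 8 genes and 6139 of all genes passed, instead of 3 and 2905. At library size alone Myh1 turned to 0.083, Myh6 had -0.063 and Myh7b -0.34. The mouse numbers gave no pairing: same-numbered mice had mean correlations of deviations of -0.114 by titles and -0.0302 by descriptions, and 0 and 2 of the 8 mice deviated most alike with their own number. With these numbers as a replicate block, 2673 and 2822 genes were called, 3 members in each case. Myh7b then had -0.56 (adjusted p = 0.0559) by titles, Myh4 had -3.67 and -3.65, and no other gene of the 8 changed its side of the threshold.

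Leaving out each mouse in turn gave 2618 to 3142 calls over all genes and 3 to 4 among the 8, with Myh7b the added one. The log2 fold change ran from -0.57 to -0.46 for Myh7, from -0.68 to -0.59 for Myh2, from -0.21 to -0.08 for Myh1, from -4.98 to -2.96 for Myh4, from 3.73 to 3.92 for Myh3, from 0.0073 to 0.16 for Myh8, from -0.35 to -0.22 for Myh6 and from -0.65 to -0.40 for Myh7b, which lost its adjusted p without Dnm2 +/K562E mouse 1 or 4. The difference in the Myh7 share ran from -1.31 to 1.01 percentage points, turning positive without control mouse 3 (0.30) and without Dnm2 +/K562E mouse 4 (1.01), and it was 0.23 over the 4 adult genes alone and -1.27 without both Myh4 and control mouse 4, a setting chosen after the data were seen. The causes were not tested. Myh15, Chrng, Gdnf and Nppb had under 1 normalized CPM in every control, so their differences rest on few reads there. The same held for Calcr in every Dnm2 +/K562E mouse.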
